A study of Mus musculus with 6 samples.

Results

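The respiratory chain genes described here are the protein-coding genes whose symbols begin with Nduf, Uqcr, Cox4 to Cox8 or Atp5, the genes Sdha, Sdhb, Sdhc and Sdhd, and the protein genes of mitochondrial DNA, whose symbols begin with mt-Nd, mt-Co, mt-Atp or mt-Cytb. They were chosen by symbol alone, and 105 of the 23170 genes in the authors' deposited table met the rule. Of these, 92 lie on nuclear chromosomes and 13 on mitochondrial DNA. The nuclear genes divide into 47 for complex I, 4 for complex II, 8 for complex III, 16 for complex IV and 17 for complex V. The mitochondrial genes divide into 7 for complex I, 1 for complex III, 3 for complex IV and 2 for complex V. A further 9 rows with matching symbols were of another gene type and were set aside.

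The tissue was subchondral bone of the condyle, the knob of the mandible inside the temporomandibular joint, from mice labelled wild type. One group of 3 libraries was labelled as sham operation and the other 3 as partial discectomy, which is removal of part of the joint's disc and serves in mice as a model of degenerating joints. Surgery was on 1 side, bone was taken from the operated joint, and the age of both groups is given as P6w+PO2w, prefixes that the labels do not spell out. Sham descriptions carry the letters Rctrl and those of partial discectomy the letters LPD, also unexplained, so anything they stand for cannot be told apart from the operation. The number 6 stands before the letters in 1 library of each group, and whether it marks the same animal is not stated. Whether each library is a separate mouse is not stated, so the spread between libraries may be technical.

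The respiratory chain passes electrons from nutrients to oxygen across the inner mitochondrial membrane. Complex I takes them from NADH and complex II from succinate, complex III passes them on to cytochrome c, and complex IV hands them to oxygen. Complexes I, III and IV pump protons, and complex V, the ATP synthase, lets them return to make ATP. Most subunits are encoded in the nucleus and imported, while a small core is encoded on mitochondrial DNA, where long transcripts from each strand are cut into single messages. Complex II is built from nuclear genes alone. In bone, osteoclasts are known for many mitochondria, and mature red blood cells of mammals for having none.

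For each gene the authors' deposited table holds 2 group means of normalized expression, whose unit is not named, and the smallest group mean is 1, called the floor here. The ratio divides the partial discectomy mean by the sham mean, floor included, with its 95% limits, a p-value from a model that is not named, and that p adjusted by the Benjamini-Hochberg method over all 23170 genes. The threshold for a call was an adjusted p under 0.05. Values of single libraries were not analysed here. The table also gives each gene's highest value and geometric mean over the 6 libraries, and together with the group means these set outer limits between which every single library must lie. Such limits are given below in place of library values. Every level, ratio, 95% limit and p-value in the text is the authors' deposited table's own or derives from its columns. Whether values were scaled by transcript length is not stated, so levels of different genes are set side by side only in a few places, and there as deposited. These are near-identical copies, sums, filters by level, the choice of named genes and a rank correlation among the mitochondrial genes.

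Several mitochondrial genes have near-identical copies on a nuclear chromosome, which bears on what their values measure. The first 60 bases of mt-Co3 (GRCm38, chrM:8607-8666, plus strand, coding) and of the chromosome 1 pseudogene Gm28437 (minus strand) are shown because the genes are the same over all 783 aligned bases.
mt-Co3: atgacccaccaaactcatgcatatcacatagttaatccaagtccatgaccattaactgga
Gm28437: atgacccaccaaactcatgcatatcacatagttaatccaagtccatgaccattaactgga
The first 60 bases of mt-Nd3 (chrM:9459-9518, plus strand, coding) and of the chromosome 1 pseudogene Gm28438 hold the 1 base that differs over 345 aligned bases, printed as a capital.
mt-Nd3: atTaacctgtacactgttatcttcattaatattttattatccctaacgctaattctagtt
Gm28438: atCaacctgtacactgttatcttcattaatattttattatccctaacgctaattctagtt
The genes mt-Atp8 and mt-Atp6 overlap over 43 bases (chrM:7927-7969, plus strand), shown because reads inside this stretch belong to both genes.
mt-Atp8 and mt-Atp6: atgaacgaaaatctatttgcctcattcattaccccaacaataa

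Promoters were searched for 3 short motifs because the ratios of nuclear members lay mostly on 1 side. Of the 92 nuclear members, 76 had an entry among the RefSeq promoters of GRCm38.p6, each holding 250 bases before the start and 50 from the start on. The motifs, searched on both strands, were GCGCATGCG for NRF1, CCGGAAGT for GABP and AAGATGGCG for YY1, transcription factors known to act on respiratory genes. The NRF1 letters and their reverse complement can lie on top of each other. Each gene was counted once, if any of its promoter entries held the letters. The NRF1 letters were found for 10 of the 76 members, or 13.2%. They were found for 1.95% of all 27025 genes with a promoter entry and for 3.49% of other protein-coding genes of the table with an entry. The YY1 letters were found for 10.5% of members, against 1.64% and 2.98%. The GABP letters were found for 6.58%, against 4.31% and 7.85%. At least 1 of the 3 was found for 22 members, or 28.9%, against 7.48% and 13.5%. Examples were taken only from matches that end before the start of a promoter entry. Among the 8 members with the YY1 letters, Atp5j was the only one with such a match. The windows of Atp5g2 and Atp5j lie wholly inside the deposited bounds of their genes. Examples of 30 bases each follow, written along the gene's own strand with the motif, or its reverse complement, in capitals.
Ndufa11, NRF1 (chr17:56717692-56717721, plus strand): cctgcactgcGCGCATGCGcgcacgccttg
Cox6a1, NRF1 (chr5:115349101-115349130, minus strand): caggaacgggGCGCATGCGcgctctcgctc
Atp5k, NRF1 (chr5:108434430-108434459, minus strand): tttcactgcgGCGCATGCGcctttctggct
Atp5g2, NRF1 (chr15:102671070-102671099, minus strand): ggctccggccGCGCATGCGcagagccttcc
Uqcr11, GABP (chr10:80406868-80406897, minus strand): tctctcctccCCGGAAGTagatgtcaatgt
Uqcrh, GABP (chr4:116075071-116075100, minus strand): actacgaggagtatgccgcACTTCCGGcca
Atp5j, YY1 (chr16:84835045-84835074, minus strand): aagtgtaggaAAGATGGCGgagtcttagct
The median log2 ratio was 0.38 for the 10 members with the NRF1 letters and 0.45 for the other members with a promoter entry. For the YY1 letters the medians were 0.36 and 0.45, and for the GABP letters 0.52 and 0.43. A match is a description of these letters, not a site.

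Over all members, nuclear messages were at higher mean levels after partial discectomy and mitochondrially encoded messages were close to equal in both groups. Of the 92 nuclear members, 88 had a ratio above 1, and their median log2 ratio was 0.45, a ratio of 1.36. Of the 13 mitochondrial members, 9 had a ratio above 1, and their median log2 ratio was 0.01. A ratio above 1 was found for 62.7% of all genes, 67.5% of protein-coding genes and 71.4% of those with a mean at least 5 above the floor, the background for every such count below. The median log2 ratio was 0.08 over all genes, 0.12 over the 15397 protein-coding genes and 0.14 over the 9538 protein-coding genes with a mean at least 5 above the floor. Taken relative to the all-gene median of 0.08, the mitochondrial median turned to −0.07, while the nuclear one was 0.37. The nuclear median was 0.23 over the 85 members whose highest library, a partial discectomy one, was left out, and 0.10 relative to other genes of the same length class, as described further on. The medians of the nuclear and the mitochondrial genes differed by 0.44 on the log2 scale, a description with no test. The highest mitochondrial log2 ratio was exceeded by 65 nuclear members.

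No single member passed the test. Among the 105 members in the authors' deposited table, 0 had an adjusted p under 0.05, where 2.38% of all genes did, and the lowest adjusted p among members was 0.221, for Atp5e. At an unadjusted p under 0.05, 14 nuclear members, or 15.2%, were higher after partial discectomy, where 10.9% of all genes were. None was lower, where 3.31% of all genes were, and no mitochondrial member reached that p in either direction. The 95% limits lay above equal means for 19 nuclear members, or 20.7%, where they did for 11.1% of all genes. These differences from the background are descriptions with no test.

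**Figure D1:**
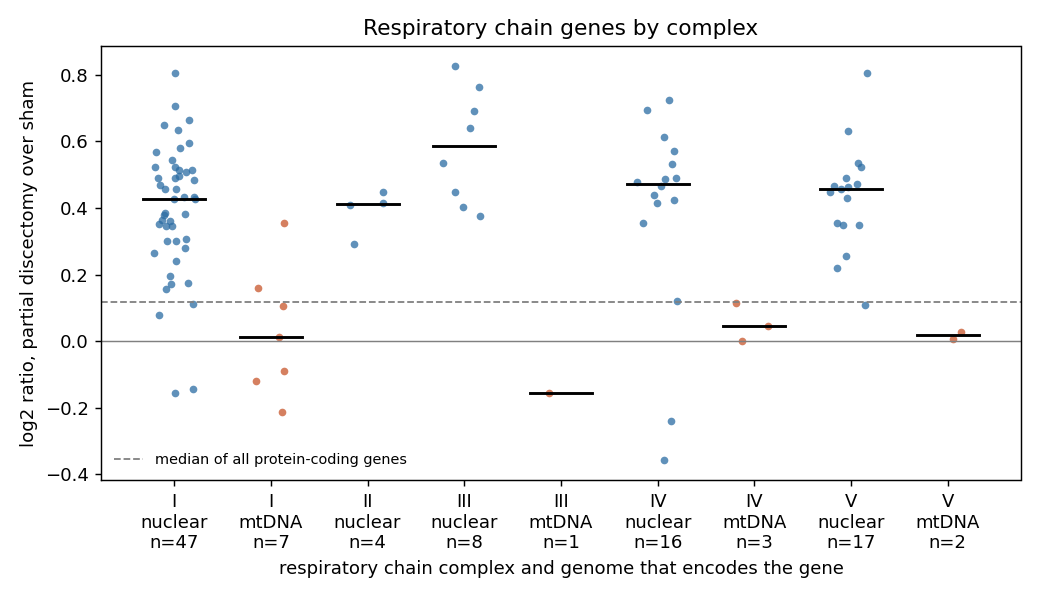
Log2 ratio of each respiratory chain gene, partial discectomy over sham (vertical axis), by complex and by the genome that encodes the gene. Each point is 1 gene, black bars are group medians, the dashed line is the median of all protein-coding genes. Nuclear medians lie between 0.41 and 0.59 and mitochondrial medians between −0.15 and 0.04.

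Complex I, the entry point for electrons from NADH, had 45 of 47 nuclear members with a ratio above 1 and a median log2 ratio of 0.43. Its 7 core subunits, which carry the electron path, all had a ratio above 1, and the log2 median was 0.36. Ndufv2, an iron-sulphur subunit of the NADH-oxidizing arm, was highest among them at 21.3 in sham and 32.2 after partial discectomy (ratio 1.51, 95% limits 1.03 to 2.23, p = 0.0511 in the authors' deposited table). Ndufs1, which holds further iron-sulphur clusters, was lowest at 29.5 and 33.3 (ratio 1.13, limits 0.863 to 1.48). Others were Ndufs8 at a ratio of 1.42, Ndufs7 at 1.29, Ndufv1 at 1.23 and Ndufs3 at 1.18. None of the 7 reached an unadjusted p under 0.05.

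The 31 accessory subunits of complex I, which surround the core and include Ndufa4, a gene counted here by symbol although its protein belongs to complex IV, had a median log2 ratio of 0.47, and 30 had a ratio above 1. The highest ratios were those of Ndufb1-ps, an accessory subunit gene whose symbol carries a pseudogene suffix although the table lists it as protein-coding (1.75, adjusted p = 0.223 in the authors' deposited table), Ndufa1 (1.63) and Ndufb9 (1.59). Ndufs6, a zinc-binding accessory subunit, had means of 5.80 and 8.996 (ratio 1.55, p = 0.0244, adjusted p = 0.251 in the authors' deposited table). Lowest were Ndufb2 at 0.899 and Ndufa9 at 1.06.

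For a pair of accessory subunits the libraries of the groups could not overlap. Ndufab1, the mitochondrial acyl carrier protein (mm10, chr7:122085403-122101886, minus strand), had means of 15.0 in sham and 19.5 after partial discectomy. Every sham library lay between 12.9 and 17.1, and every partial discectomy library between 18.6 and 20.02. Its ratio was 1.30 (95% limits 1.001 to 1.70, p = 0.0461, adjusted p = 0.339 in the authors' deposited table). Ndufb7, a subunit of the membrane arm (chr8:83566671-83571626, plus strand), had means of 8.94 and 12.3, with sham libraries between 7.68 and 10.3 and partial discectomy libraries between 10.5 and 13.3. Its ratio was 1.37 (limits 1.04 to 1.81, p = 0.0312, adjusted p = 0.283 in the authors' deposited table). Among the members these limits placed every partial discectomy library above every sham library for these 2 genes only, where they did so for 5.41% of all genes. For the other members the limits of the groups overlap, so that whether their libraries did is not known.

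The 8 assembly factors of complex I, which help to build it and do not stay in it, had a lower median than the subunits, at 0.22, with 7 ratios above 1. Ndufaf3 was highest at 1.35 and Ndufaf7 lowest at 0.905. Of 10 listed assembly factors outside the symbol rule, 9 were in the table, with 5 ratios above 1, a log2 median of 0.07 and none at an unadjusted p under 0.05. Among these, Tmem126b was lowest at 0.884 and Foxred1 highest at 1.16. The difference between subunits and assembly factors was not tested.

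Complex II, which oxidizes succinate and is also an enzyme of the citric acid cycle, had 4 of 4 ratios above 1, and the log2 median was 0.41. Sdhc, 1 of the membrane anchors, had means of 12.8 in sham and 17.0 after partial discectomy (ratio 1.33, limits 1.01 to 1.74, p = 0.0439, adjusted p = 0.331 in the authors' deposited table). Its sham libraries lay between 11.0 and 14.8 and its partial discectomy libraries between 14.6 and 18.8, ranges that barely overlap. Sdhb, the iron-sulphur subunit, had a ratio of 1.36, Sdhd, the other anchor, 1.33, and Sdha, the flavoprotein that binds succinate, 1.22. Their partial discectomy limits reached far into those of sham. Of the 4 assembly factors of complex II, 3 had a ratio above 1, from 0.936 for Sdhaf3 to 1.35 for Sdhaf1.

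Complex III had the highest median of the 5 complexes, 0.59, with 8 of 8 nuclear ratios above 1. The highest ratios belonged to its small subunits. Uqcr10 (chr11:4701973-4704342, minus strand) had means of 6.65 in sham and 11.8 after partial discectomy (ratio 1.77, limits 1.11 to 2.85, p = 0.0345, adjusted p = 0.296 in the authors' deposited table). Uqcr11 (chr10:80402997-80406830, minus strand), whose promoter window is printed above, had means of 6.68 and 11.3 (ratio 1.70, limits 1.15 to 2.52, p = 0.0181, adjusted p = 0.222 in the authors' deposited table). Its libraries lay between 4.23 and 9.47 in sham and between 7.19 and 15.4 after partial discectomy. Uqcrh, the hinge protein, had a ratio of 1.62 and Uqcrq 1.56 (p = 0.0275 in the authors' deposited table). The large core proteins Uqcrc1 and Uqcrc2 were lowest at 1.32 and 1.30, with Uqcrfs1, the Rieske iron-sulphur protein, at 1.36 and Uqcrb at 1.45. Of 7 further genes for complex III outside the rule 4 had a ratio above 1. They ran from 0.731 for Lyrm7, which helps to insert the Rieske protein, to 1.39 for Uqcc3, and Cyc1, the cytochrome c1 subunit, was at 1.29. Both genes listed for cytochrome c had ratios above 1, at 1.39 for Cycs itself and 1.31 for Hccs, which attaches its haem, each with an unadjusted p above 0.05.

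Complex IV, cytochrome c oxidase, had 14 of 16 nuclear ratios above 1, and the log2 median was 0.47. Cox4i1, the common form of its largest nuclear subunit (chr8:120668222-120674207, plus strand), had means of 31.4 and 51.9 (ratio 1.65, limits 1.07 to 2.55, p = 0.0368, adjusted p = 0.306 in the authors' deposited table). Its libraries lay between 17.6 and 47.7 in sham and between 29.1 and 71.7 after partial discectomy. Cox7a2l, which links complexes III and IV in supercomplexes, had a ratio of 1.62 (p = 0.0354) and Cox7c 1.53 (p = 0.0266 in the authors' deposited table). Both Cox7a2l and Cox7c have near-identical pseudogene copies, described further on. Cox6c, at means of 36.2 and 50.8, had a ratio of 1.41. All 7 of the common isoforms listed, Cox4i1, Cox6a1, Cox6b1, Cox7a2, Cox7b, Cox8a and Ndufa4, had ratios between 1.33 and 1.65.

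The tissue isoforms had ratios on both sides of 1. Cox6a2 and Cox8b, forms of heart and skeletal muscle, were at 0.780 and 0.846, with means of 2.62 and 2.04 for Cox6a2 and of 1.89 and 1.599 for Cox8b. Without the highest library, which had to be a sham one for both, the ratio was 1.003 for Cox6a2 and 1.14 for Cox8b. Cox7a1, also a muscle form, was at 1.09. The 95% limits of these 3 genes all included equal means, and their levels were close to the floor. Of 20 skeletal muscle markers listed, 19 were in the table, and 0 had a ratio above 1. Their log2 median was −0.43, and none reached an unadjusted p under 0.05. Their summed level above the floor was 546 in sham and 338 after partial discectomy, and the lowest ratio was 0.387 for Ryr1, the calcium release channel. For 17 of the 19 markers the highest library had to be a sham one. For Acta1 that library was at 142, where the sham mean was 72.4 and the partial discectomy mean 49.4. The marker ratios without that library are not given here, so whether the lower ratios hold without it is not shown. The part of muscle RNA in the values of the muscle isoforms was not tested. Cox6b2, known as a testis form, had means of 1.52 and 2.04 (ratio 1.34, p = 0.0380, adjusted p = 0.311 in the authors' deposited table). Its mean lies less than 1 above the floor. Cox7b2 and Cox8c were not in the table.

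A pair of isoforms known from low oxygen and vascular mural cells had 95% limits that included equal means. Ndufa4l2, which replaces Ndufa4 when oxygen is low (chr10:127514967-127517154, plus strand), had means of 27.4 and 40.7 (ratio 1.48, limits 0.744 to 2.95, p = 0.327 in the authors' deposited table). Without the highest library, which had to be a partial discectomy one, its ratio was 0.966. Cox4i2, the form of Cox4 known from lung and low oxygen, had a ratio of 1.28 (limits 0.742 to 2.204) and 1.08 without its highest library. Of 12 pericyte and smooth muscle markers, 6 had a ratio above 1, and their median log2 ratio was −0.12. Of 21 assembly factors of complex IV in the table, 19 had a ratio above 1, with ratios from 0.964 for Cox11 to 1.43 for Coa3 and a log2 median of 0.17.

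Complex V had 17 of 17 nuclear ratios above 1, and the log2 median was 0.46. Atp5e, the small epsilon subunit of the central stalk (chr2:174461072-174464105, minus strand), had means of 5.44 and 9.51 (ratio 1.75, limits 1.16 to 2.64, p = 0.0179, adjusted p = 0.221 in the authors' deposited table). Its libraries lay between 3.37 and 7.83 in sham and between 5.88 and 13.1 after partial discectomy, so the ranges overlap. Atp5o, a part of the stator, was next at 1.55 and Atp5d, also of the central stalk, at 1.45. Atp5a1 and Atp5b, subunits of the catalytic part, were at 96.5 and 133 (ratio 1.38) and at 125 and 160 (ratio 1.27). The lowest were Atp5k at 1.08, Atp5g1, 1 of 3 genes for the membrane ring, at 1.16, and Atp5l at 1.19. Both Atp5g1 and Atp5l have near-identical pseudogene copies, described further on, which makes their values uncertain. The 3 assembly factors of complex V all had ratios above 1, between 1.18 for Atpaf1 and 1.246 for Atpaf2.

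**Figure D2:**
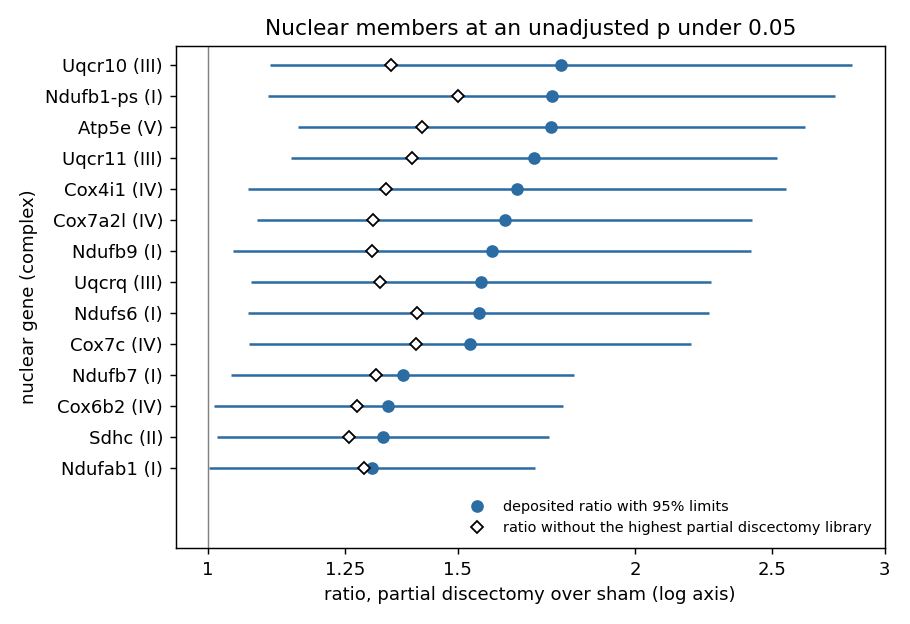
Ratio of partial discectomy to sham (log axis) for the 14 nuclear genes at an unadjusted p under 0.05, with the deposited 95% limits as lines. Open diamonds show the ratio with the highest partial discectomy library left out, which is lower for each gene by construction, and all 14 stay above 1. The 14 were picked by their p-value in these same libraries, so this is no separate check of them.

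The 13 mitochondrially encoded genes gave no ratio outside 0.864 to 1.28, and each had 95% limits that included equal means. Of complex I, mt-Nd6 was highest (chrM:13552-14070, minus strand), with means of 76.9 in sham and 98.3 after partial discectomy (ratio 1.28, limits 0.723 to 2.26, p = 0.551 in the authors' deposited table). It is encoded on the other strand from the rest and overlaps the end of mt-Nd5. Whether reads were counted by strand is not given in the sources used here, so reads from these 2 strands cannot be told apart. Without the highest library, which had to be a partial discectomy one, the ratio of mt-Nd6 was 0.980. The lowest was mt-Nd4 (chrM:10167-11544, plus strand), with means of 1670 and 1442 (ratio 0.864, limits 0.470 to 1.59, p = 0.585 in the authors' deposited table). Between these were mt-Nd4l at 1.12, mt-Nd3 at 1.08, mt-Nd1 at 1.01, mt-Nd5 at 0.940 and mt-Nd2 at 0.921.

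For complex III, mt-Cytb, the cytochrome b subunit, had means of 1396 and 1255 (ratio 0.899, p = 0.677 in the authors' deposited table). For complex V, mt-Atp6 had a ratio of 1.02 and mt-Atp8, which shares the printed 43 bases with it, 1.00. For complex IV, mt-Co3 had a ratio of 1.08, or 0.981 without its highest partial discectomy library, and mt-Co2 1.03. The catalytic subunit mt-Co1 (chrM:5328-6872, plus strand) had means of 6612 and 6617, and every library lay between 6285 and 6840. No library of mt-Co1 could therefore exceed another by more than 1.09-fold. The 95% limits in the authors' deposited table ran from 0.341 to 2.94 (p = 0.999), a width of 8.63-fold, so those limits are wider than the spread between the libraries. They spanned more than any pair of libraries could for 11 of 13 mitochondrial members, for 16 of 92 nuclear members and for 5388 of the 9538 protein-coding genes at least 5 above the floor.

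**Figure D3:**
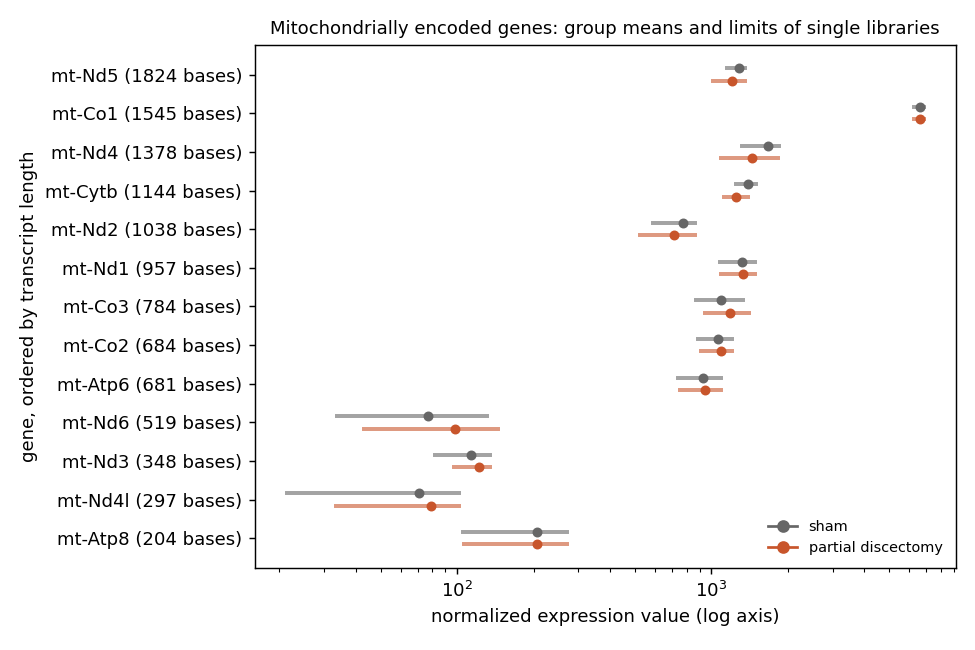
Mean normalized expression value (log axis) of each mitochondrially encoded gene in sham (grey) and partial discectomy (orange) libraries, ordered by transcript length. Dots are group means and bars are the outer limits within which every library of the group must lie. The bars of both groups overlap for all 13 genes, and the dots are nearly level for mt-Co1 at 6612 and 6617.

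Within the mitochondrial genes the ratio went with transcript length. The 8 genes under 1000 bases had log2 ratios from 0.01 to 0.35, all above 0. The 5 genes of at least 1000 bases had log2 ratios from −0.21 to 0.00, and only mt-Co1 was above 0, with 0.00. Across the 13 genes, which share the same libraries and are not independent replicates, Spearman's rho of log2 ratio with length was −0.70 and with expression level −0.69, so that length and level cannot be told apart here. Taken relative to the all-gene median, 5 of the 13 ratios changed side.

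The mitochondrial ribosomal RNAs, added to the lists after their values were seen, had higher ratios than any of the mitochondrial messages. The small one, mt-Rnr1, had means of 1390 and 2597 (ratio 1.87, limits 0.973 to 3.59, p = 0.0574 in the authors' deposited table), and every partial discectomy library lay above every sham library. The large one, mt-Rnr2, had means of 449.9 and 803.5 (ratio 1.79, limits 1.06 to 3.01, p = 0.0429, adjusted p = 0.328 in the authors' deposited table). Neither was called changed. Whether libraries were made by selecting polyadenylated RNA or by removing rRNA is not given in the sources used here.

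Summed above the floor, the mitochondrial members held 3.45% of the signal of all genes in sham and 3.09% after partial discectomy. The nuclear members held 0.245% and 0.311%. The summed level of the nuclear members was 1180 and 1639, a ratio of 1.39, and that of the mitochondrial members 16587 and 16277, a ratio of 0.981. In bulk tissue a change in the number of cells of a type and a change in RNA per cell cannot be told apart.

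Copies elsewhere in the genome share sequence with several members, and these were looked up after the values were seen. The pseudogene Gm28437, the same as mt-Co3 over the aligned length, had deposited means of 1094 and 1185, and mt-Co3 itself 1094 and 1185. How the authors assigned reads that match both is not given in the sources used here. A copy was found for 6 mitochondrial members. Other pairs were less alike in level, with Gm28661 at 1306 and 1345 where mt-Co2 had 1058 and 1091, although the ratio was 1.03 for both. The ratio was also alike for mt-Atp6 and Gm10925, at 1.02 for both. It was 1.08 for mt-Nd3 and 1.23 for Gm28438, whose means were 86.4 and 106. It was 1.12 for mt-Nd4l and 1.03 for Gm10222, and 1.00 for mt-Co1 and 1.11 for Gm29216, which matches only a part of it. Copies were searched for among 2551 pseudogenes only, so protein-coding copies were not looked for. Of the nuclear members, 17 had such a copy at 95% identity or more over at least 200 bases. For 14 a copy reached at least 10% of the member's sham mean, both taken above the floor. The largest such case was Atp5g2, for a subunit of the membrane ring, at 2.51 in sham where its copy Gm10175 was at 17.2. Ndufb4 was at 5.74 and its copy Ndufb4c at 8.30, with ratios of 1.43 and 1.63. Atp5l had a ratio of 1.19, and its copy Gm10221, with means of 8.61 and 14.2, had 1.65. Atp5g1 was at 1.16 and its copy Gm10039 at 1.28. Cox7a2l had a ratio of 1.62, and its copy Gm6969, with means of 14.4 and 15.2, had 1.06. Cox7c was at 1.53 and its copy Gm10012 at 1.44. Values of these members are uncertain, and the median log2 ratio of the 75 nuclear members for which no such copy was found was 0.44. Ndufb1-ps, for which no sequence was matched, was not searched and counts among the 75.

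The highest library weighs on the nuclear ratios. For 85 of the 92 nuclear members the highest of the 6 libraries had to be a partial discectomy library, where this held for 4835 of the 9538 protein-coding genes at least 5 above the floor. That library held between 34.1% and 56.6% of the partial discectomy total, with a median of 42.9%. As the highest of 3 libraries it holds at least an equal share by construction, and for the 4835 protein-coding genes the median share was 39.2%. With the highest library left out, the median log2 ratio of those 85 members went from 0.46 to 0.23, and 83 remained above 0. For the 4835 protein-coding genes the same step took the median from 0.30 to 0.17, and 4149 remained above 0. Leaving out the highest library lowers every ratio by construction, and it need not be the same library from gene to gene. By complex the medians without it were 0.22 for complex I, 0.22 for II, 0.29 for III, 0.21 for IV and 0.28 for V. The members that crossed to below 1 were Ndufa4l2 and Ndufaf5, both at 0.966.

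Transcript length also went with the ratios of nuclear genes. Among other protein-coding genes at least 5 above the floor, the median log2 ratio was 0.82 for the 41 genes of up to 500 bases and 0.48 for the 114 genes of 500 to 750 bases. It was 0.33 for 194 genes of 750 to 1000, 0.26 for 569 of 1000 to 1500, 0.19 for 1857 of 1500 to 2500, 0.14 for 2896 of 2500 to 4000 and 0.06 for the 3765 longer ones. Nuclear members, with a median length of 865 bases, had medians of 0.71, 0.47, 0.49, 0.43, 0.38, 0.34 and 0.03 in the same classes, with 7, 32, 13, 18, 13, 6 and 2 genes. Against other genes of its length class a nuclear member was higher by a median of 0.10, with 60 of 91 above, while mitochondrial members were lower by a median of 0.41 and 0 of 13 were above. In the classes up to 750 bases the nuclear members were thus at or below the medians of other genes, and in the classes from 750 to 4000 bases they were above them. Unlike the other genes, the nuclear members were not filtered by level. Those up to 500 bases include Cox8b and Cox7a1, which lie close to the floor. The part of length in the nuclear ratios was not tested further.

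**Figure D4:**
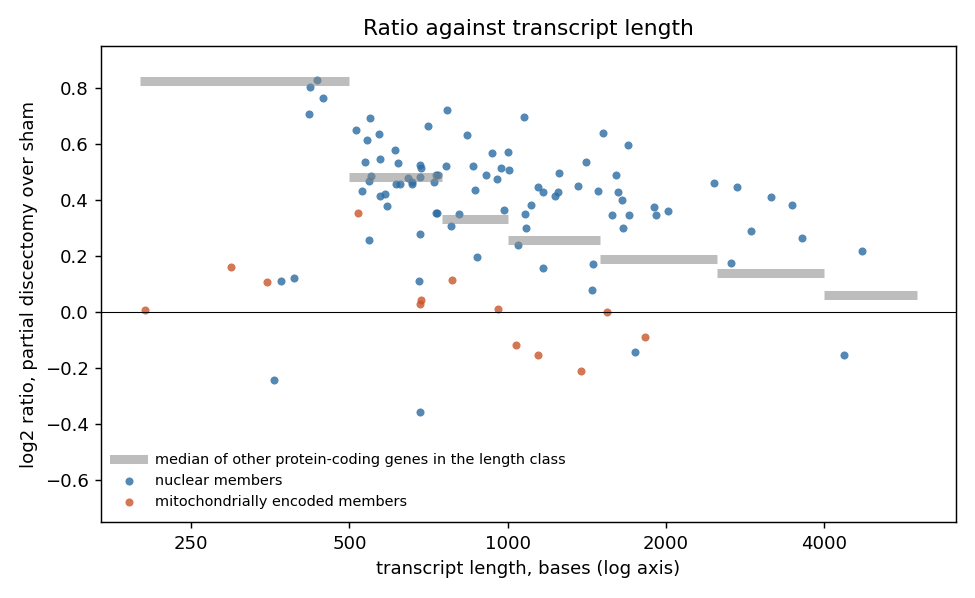
Log2 ratio of partial discectomy to sham against transcript length in bases (log axis) for nuclear (blue) and mitochondrially encoded (orange) respiratory chain genes, 1 point a gene. Grey bars are medians, by length class, of other protein-coding genes at least 5 above the floor. They fall from 0.82 to 0.06, and all 13 orange points lie below them.

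Other large mitochondrial and ribosomal gene groups give the nuclear members a scale. The 81 cytosolic ribosomal protein genes had a median log2 ratio of 0.59, above that of the nuclear respiratory genes, and the 78 mitochondrial ribosomal protein genes had 0.28, below it. All 13 genes listed for the outer membrane and mitochondrial mass had ratios above 1, with a median of 0.36, from Timm44 at 1.04 to Tomm22, an import receptor, at 1.45 (p = 0.0426 in the authors' deposited table). Of 18 citric acid cycle genes, 17 had ratios above 1, with a median of 0.24, from 0.976 for Sucla2 to 1.33 for Mdh2, and none reached an unadjusted p under 0.05. These differences between groups of genes are descriptions and were not tested.

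Genes that copy and transcribe mitochondrial DNA had ratios close to 1. Of 19 in the table, 15 had ratios above 1, with a median log2 ratio of 0.10, from 0.976 for Mterf3 to 1.23 for Tfam, which packages mitochondrial DNA. Of 13 regulators of mitochondrial biogenesis, 9 had ratios above 1, with a median of 0.14. Ppargc1b, a coactivator known to act in osteoclast mitochondria, was highest, with means of 7.15 and 10.7 (ratio 1.497, limits 1.11 to 2.02, p = 0.0131, adjusted p = 0.192 in the authors' deposited table), and every partial discectomy library lay above every sham library. Esrrg was lowest at 0.735, and Ppargc1a was at 0.754. Of 6 genes listed for uncoupling, 5 were in the table, and Ucp2 rose, with means of 99.7 and 243 (ratio 2.44, limits 1.61 to 3.70, and in the authors' deposited table adjusted p = 0.0383). It encodes an inner membrane carrier known from leukocytes. Slc25a5, an ADP/ATP carrier, had a ratio of 1.604 (p = 0.0466), and Slc25a31 was lowest at 0.689 (p = 0.0453, adjusted p = 0.337 in the authors' deposited table).

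Markers of other cell types differed between the same libraries. Of 12 erythroid markers 11 were in the table, all with ratios above 1, from 1.81 for Tfrc to 18.02 for Slc4a1. Those called higher were 10, among them the haemoglobin genes Hba-a1, Hba-a2, Hbb-bs and Hbb-bt, and Alas2, which starts haem synthesis. Of 12 neutrophil markers all had ratios above 1, from 3.95 for Ly6g to 18.4 for S100a9 and for Retnlg. The 10 called higher were these 3 and Cd177, Ltf, Camp, Ngp, Lcn2, S100a8 and Mmp8. Summed above the floor, the erythroid markers were at 118 in sham and 454 after partial discectomy, and the neutrophil markers at 108 and 1446. All 10 proliferation genes had ratios above 1, from 1.63 for Pcna to 2.89 for Mki67, with Aurka called higher at 2.36, as did all 10 osteoclast markers, from 1.20 for Nfatc1 to 2.54 for Calcr. The osteoblast markers Col1a1, Bglap and Ibsp of the labelled tissue were far above the floor in both groups, and 9 of 10 osteoblast markers had ratios above 1 with none at an unadjusted p under 0.05. Of the fat cell markers 7 were in the table, 5 of them with ratios above 1. They ran from 0.705 for Plin4 to 3.41 for Fabp4, with Fabp4 and Pparg called higher. Of the brown fat markers 4 were, with 0 ratios above 1. No listed marker in the table was at the floor in either group, but some lay close to it. In sham Hbb-bt was at 1.11 and Klf1 at 1.13, and after partial discectomy Elovl3 was at 1.01. The ratios of such genes include the floor. The part of these cell types in the nuclear respiratory ratios was not tested.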

How the data were processed

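RNA-seq of 3 sham and 3 partial discectomy libraries was analysed from 1 table. The tool named is STAR 2.6.1d and the build mm10, per the submitters' processing notes. No read counter, gene filter, scaling or statistical model is given in the sources used here. The signal values deposited by the authors are group means and the total, maximum, geometric and arithmetic mean over 6 libraries, per the file headers. The p-values, ratio and log2 ratio are the authors' own, per the file headers. The signed fold change and its limits, entered as a score, were deposited by the authors and turned here into ratios. The adjusted p equalled the Benjamini-Hochberg adjustment over all 23170 genes. Depth is unknown. The counts planned for a count-based test were not in the table, so the deposited statistics take their place. The second file held no measurement and was not used.

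Limits for single libraries follow from the group means, maximum and geometric mean, and were tested on simulated data. Lengths are from GENCODE M21, gene coordinates from the authors' deposited table and promoter coordinates from RefSeq. Copies were found with blastn 2.17.0. Python 3.11.15 with pandas 2.3.3 was used. The members and lists were chosen with earlier results of these data known. Named genes are all mitochondrial members, the tissue isoforms and their partners, the core of complex I, all Sdh genes, the 3 highest and 3 lowest ratios and 2 highest means of each complex, members at an unadjusted p under 0.05, and in each list the highest, the lowest and any called gene. Some genes under this rule are not reported here, while counts and medians include them. Ndufaf3, Ndufaf5, Uqcrb, Cyc1, 3 bone genes, genes whose promoter is printed, the copies and the rRNAs were added after their values were seen. Alternatives changed the call rule, the genes adjusted over, the floor, the low-value filter, the centre, the average and the membership. Centring on length class, leaving out the highest library and leaving out members with copies were chosen after seeing the data.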

Additional observations from a re-analysis of the deposited data

How the results depend on the processing

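Limits: group means without library values, an unknown depth and an unnamed model bound what can be said of any single gene. No paired analysis was possible because the table holds no values per library, and for the same reason leaving out each library in turn and a replicate block were not run. Adjusting over genes at least 1 above the floor, at least 5 above it, or over protein-coding genes left 0 calls, with lowest adjusted p of 0.199, 0.220 and 0.180. Calling by the 95% limits gave 19 members against equal means, where 11.1% of all genes had limits above equal means. It gave 9 members against the median ratio of all genes and 4 against the ratio of summed means. For the 9 and the 4, the share of all genes called by the same rule is not given here. Whether these counts exceed the background is therefore not known. Centring on summed means took the nuclear median log2 ratio from 0.45 to 0.31 and the mitochondrial one from 0.01 to −0.12. The complexes I to V then stood at 0.29, 0.28, 0.45, 0.34 and 0.32. Leaving out the highest library gave 0.23 for nuclear members and 0.22, 0.22, 0.29, 0.21 and 0.28 for the complexes. Centring on length class gave 0.10 and −0.41, and the cause was not tested. The nuclear minus mitochondrial difference lay between 0.398 and 0.505 in the settings run for it, which do not include leaving out the highest library.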
